A study of Mus musculus with 6 samples.

Results

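The adipocyte genes described here are 8 genes whose products mark or serve fat cells, Adipoq, Lep, Retn, Cfd, Plin1, Cidec, Fabp4 and Scd1, measured in whole soleus (Sol) muscle. They were picked by symbol from the 24411 genes listed in the count table, and 8 of 8 were found there. RNA came from 3 wild type (WT) and 3 LSD1-mKO mice on a C57BL/6 background, with 1 library per mouse. LSD1-mKO mice carry floxed Lsd1 (Kdm1a) and a CreERT2 transgene under the human ACTA1 promoter, which is active in differentiating and differentiated muscle cells, so that the deletion is not directed at fat cells. WT mice have the floxed gene and no CreERT2. Both groups were 8 weeks old when they were given a running wheel for 38 days of voluntary wheel running (VWR). After 3 days of familiarization both groups received tamoxifen at 75 mg/kg for 5 days. Before tissue was taken, both groups were off the wheel and fasted. No sedentary mice were analysed, so the comparison is between genotypes after VWR. It asks whether the transcripts of these genes in the muscle, from whichever cells, differed with the deletion and how far they varied from mouse to mouse.

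White adipocytes lie between and around muscle fibers, and fat can also adhere to the surface of a dissected muscle. Such cells store triglyceride in a large droplet coated with perilipin and CIDE proteins, and they release hormones, the adipokines, that act on muscle, liver and brain. LSD1 is a histone demethylase that the Cre transgene removes from muscle cells.

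Libraries of polyadenylated RNA gave single-end reads of 75 bases, and the deposited estimated counts came to 8940206 to 10989846 per library in WT and 10984664 to 13798059 in LSD1-mKO. Values are given as counts per 1000000 after TMM scaling (CPM), which can be compared between libraries for 1 gene, or as transcripts per 1000000 (TPM), which are also per length and can be compared between genes. Kdm1a, the targeted gene, was at 40.5, 38.1 and 33.5 CPM in the WT libraries and 14.6, 16.6 and 16.6 CPM in the LSD1-mKO libraries, without overlap. Its log2 fold change was -1.23 ± 0.11 (SE), with an edgeR adjusted p of 0.0160, a call that was lost with the replicate number as a block and when WT replicate 2 or any of the LSD1-mKO replicates was left out. The slow fiber genes of Sol were high in all 6 libraries, with Myh7, the slow myosin heavy chain, at a mean of 4822 TPM.

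To show what the compared genes look like at their start, the 120 bases before the RefSeq start (GRCm38.p6) are printed for Lep, the least abundant, for Adipoq, which varied less, and for Retn, which was high in 1 library. RefSeq promoter windows were found for 6 of the 8 genes. Capitals mark TTGCNNAA, a C/EBP-type motif, and CCAAT on either strand, and the letters of the minus strand match are shown as ATTGG. The Lep stretch is chr6:29060101-29060220 on the plus strand, the Adipoq stretch chr16:23146416-23146535 on the plus strand, and the Retn stretch chr8:3655650-3655769 on the plus strand.
Lep: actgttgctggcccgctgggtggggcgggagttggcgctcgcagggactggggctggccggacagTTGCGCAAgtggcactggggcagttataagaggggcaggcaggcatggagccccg
Adipoq: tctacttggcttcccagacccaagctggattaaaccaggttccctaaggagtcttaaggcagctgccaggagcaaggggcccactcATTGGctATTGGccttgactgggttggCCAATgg
Retn: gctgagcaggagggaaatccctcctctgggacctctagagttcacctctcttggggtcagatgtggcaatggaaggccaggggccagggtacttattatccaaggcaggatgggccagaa
In Lep the match lies 55 to 48 bases before the start, and its letters read the same on both strands. In Adipoq the CCAAT matches lie at 34 to 30 and 27 to 23 on the minus strand and at 7 to 3 on the plus strand. Only the 250 bases before the start were searched. In these, Plin1 had TTGCNNAA at 187 to 180 and at 58 to 51 bases before its start, and 1 of the listed starts of Cidec had it at 198 to 191. Cfd and Retn had no match to any of the motifs searched, which were, on both strands, the TATA box TATAAA, the box CCAAT, the C/EBP-type TTGCNNAA, the nuclear receptor element AGGTCA and the core of a sterol response element, CACNCCAC. Of 32851 such stretches of 250 bases, 12.37% hold TATAAA, 33.85% CCAAT, 9.564% TTGCNNAA, 14.02% AGGTCA and 5.288% CACNCCAC. These matches describe letters and do not show binding.

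None of the adipocyte genes differed between WT and LSD1-mKO by the test. Of the 8 genes, all of which passed edgeR's expression filter, 0 were past the adjusted p threshold of 0.05, against a background of 0.0156% (2 of 12828 genes tested). At an unadjusted p under 0.05, 0 of 8 were past it, against 6.4% of all genes tested. In 0 of 8 did the 3 WT and 3 LSD1-mKO values fail to overlap, against 12.7% of all genes. The fitted log2 fold change was above 0 in 3 genes and below 0 in 5, with a median of -0.05 over the 8 and -0.02 over all genes tested. DESeq2 and limma voom also called 0 of the 8. The exact permutation test over 3 and 3 libraries (2-sided) cannot give a p under 0.1, and it gave 0.4 to 0.9 for the 8 genes. In a whole muscle, fewer fat cells and less RNA per fat cell cannot be told apart.

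**Figure D1:**
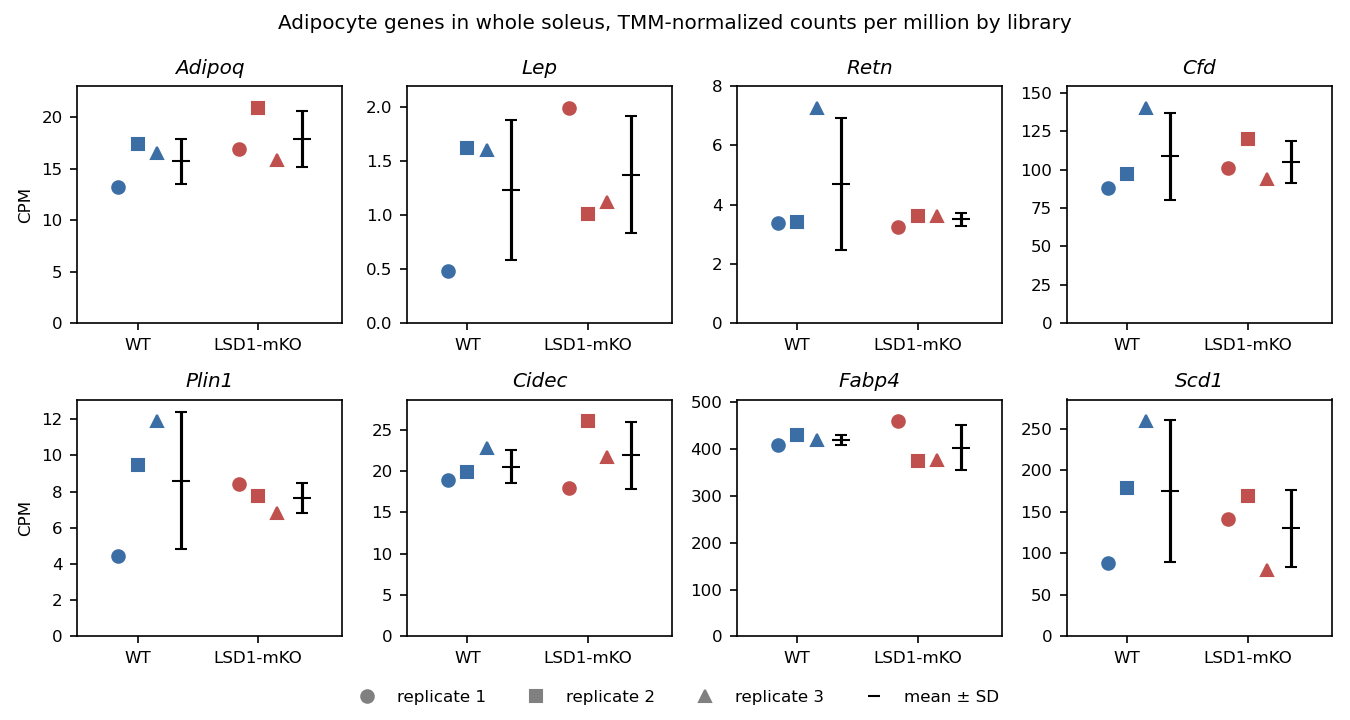
CPM of each adipocyte gene by library, with the axis starting at 0, WT in blue and LSD1-mKO in red, the marker shape giving the replicate number and the black bars the mean ± SD (n = 3). Fabp4 stayed between 373 and 460 CPM, while Scd1 ran from 79.5 to 259 CPM and the WT values of Plin1 from 4.46 to 11.9 CPM.

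Per length, Fabp4 was the most abundant, at a mean of 1018.5 TPM over the 6 libraries, followed by Cfd at 257 TPM and Scd1 at 70.8 TPM. Adipoq at 29.0 TPM and Cidec at 27.4 TPM came next, then Retn at 9.21 TPM in WT and 6.79 TPM in LSD1-mKO, Plin1 at a mean of 6.46 TPM and Lep at 0.897 TPM. Adipoq (21.0 to 35.9 TPM) and Cidec (22.5 to 33.5 TPM) did not differ beyond the spread of the libraries, and neither did Retn (6.06 to 14.4 TPM) and Plin1 (3.24 to 9.52 TPM). The lowest Scd1 library, at 36.5 TPM, stood just above the highest of Adipoq, at 35.9 TPM, and all other neighbours in this order were apart in every library. Against these levels, Fabp3, the fatty acid binding protein of muscle and a paralog of Fabp4, had a mean of 4760 TPM, which is 4.67 times that of Fabp4.

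Among the secreted products, adiponectin (Adipoq), which raises fatty acid use in muscle and liver, lies on chromosome 16 from 23146536 to 23158028 in GRCm38. Adipoq was at 13.2, 17.4 and 16.5 CPM in WT and at 16.9, 21.0 and 15.8 CPM in LSD1-mKO, from 110 to 290 counts per library. The groups overlapped, with the lowest value in WT replicate 1 and the highest in LSD1-mKO replicate 2. Means were 15.7 ± 2.20 CPM in WT and 17.9 ± 2.71 CPM in LSD1-mKO (SD, n = 3 each), and the log2 fold change was 0.18 ± 0.15 (SE) with an edgeR adjusted p of 0.850.

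Leptin (Lep), the satiety hormone, is on chromosome 6 from 29060220 to 29073877, and it was near the limit of what these libraries can measure. The counts were 4, 18 and 18 in WT and 27, 14 and 12 in LSD1-mKO, which is 0.482, 1.62 and 1.60 CPM and 2.00, 1.01 and 1.12 CPM. WT replicate 1 was the lowest and LSD1-mKO replicate 1 the highest, and the groups overlapped. Its exact Poisson 95% interval in WT replicate 1, 0.131 to 1.23 CPM, overlapped that of WT replicate 2, 0.959 to 2.56 CPM. It did not overlap that of LSD1-mKO replicate 1, 1.31 to 2.90 CPM. These intervals cover counting error only. The highest library was 4.14 times the lowest, and the log2 fold change was 0.12 ± 0.47 (SE), with a 95% interval of -0.96 to 1.19 and an edgeR adjusted p of 0.971. Without WT replicate 1 the fitted fold change of Lep was -0.21 and without LSD1-mKO replicate 1 it was -0.26, so that its sign rests on either of them.

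Resistin (Retn), an adipokine linked in mice to insulin resistance, is on chromosome 8 from 3655770 to 3660110. It was at 3.37, 3.42 and 7.28 CPM in WT and at 3.25, 3.61 and 3.63 CPM in LSD1-mKO. WT replicate 3, with 82 counts, stood above the other 5 libraries, which lay within 3.25 to 3.63 CPM. The mean was 4.69 ± 2.24 CPM in WT and 3.50 ± 0.214 CPM in LSD1-mKO (SD, n = 3 each), and the log2 fold change of -0.44 ± 0.32 (SE) had an edgeR adjusted p of 0.820. Leaving out WT replicate 3 brought the log2 fold change of Retn to 0.042.

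Adipsin (Cfd), the complement factor D that fat cells secrete, is on chromosome 10 from 79890853 to 79892655. Cfd was at 87.8, 97.4 and 140 CPM in WT and 101, 120 and 93.6 CPM in LSD1-mKO. The LSD1-mKO values fell inside the WT range. The log2 fold change was -0.05 ± 0.18 (SE) with an edgeR adjusted p of 0.964, and it was 0.18 without WT replicate 3 and 0.025 without LSD1-mKO replicate 3.

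Receptors for these hormones were measured in the same libraries. Of 4 listed receptors for adiponectin and leptin, 4 were tested and 0 were called. Adipor1 had 276 ± 24.0 CPM in WT and 274 ± 10.3 CPM in LSD1-mKO, and Adipor2 had 165 ± 13.6 and 172 ± 15.9 CPM (SD, n = 3 each). Cdh13, T-cadherin, which binds adiponectin, had 140 ± 10.9 and 132 ± 22.7 CPM, and the leptin receptor Lepr had 6.83 ± 2.27 and 7.29 ± 0.957 CPM.

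Of the proteins on the lipid droplet, perilipin 1 (Plin1), which guards stored triglyceride from lipases, is on chromosome 7 from 79720218 to 79732903. Plin1 was at 4.46, 9.44 and 11.9 CPM in WT and 8.42, 7.74 and 6.79 CPM in LSD1-mKO. The WT values spread 2.67-fold and enclosed the LSD1-mKO values, which spread 1.24-fold. Means were 8.60 ± 3.79 CPM in WT and 7.65 ± 0.820 CPM in LSD1-mKO (SD, n = 3 each), with a log2 fold change of -0.18 ± 0.30 (SE) and an edgeR adjusted p of 0.929. The fold change of Plin1 ran from -0.47 without WT replicate 1 to 0.12 without WT replicate 3.

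Cidec, which fuses small droplets into large ones, is on chromosome 6 from 113424634 to 113435760. It was at 18.9, 19.9 and 22.8 CPM in WT and 18.0, 26.0 and 21.7 CPM in LSD1-mKO. The LSD1-mKO group held the lowest and the highest value, and WT lay between them. The log2 fold change was 0.09 ± 0.15 (SE), with an edgeR adjusted p of 0.926, and -0.046 without LSD1-mKO replicate 2.

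Fabp4, a carrier of fatty acids in fat cells that is also known in capillary endothelium and macrophages, is on chromosome 3 from 10204088 to 10208576. Fabp4 was at 408, 429 and 420 CPM in WT and 460, 373 and 376 CPM in LSD1-mKO. These values were the closest together of the 8 genes, with the highest library 1.23 times the lowest. The log2 fold change was -0.06 ± 0.11 (SE), the 95% interval -0.30 to 0.19 and the edgeR adjusted p 0.934. Of the 8 genes this was the narrowest interval. Fabp4 alone made up 47.7% to 65.4% of the summed CPM of the 8 genes, which was 625, 757 and 880 in WT and 751, 723 and 598 in LSD1-mKO. Without Fabp4 the sums were 216, 328 and 460 CPM in WT and 291, 349 and 222 CPM in LSD1-mKO.

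Scd1, the desaturase that makes oleate from stearate, is on chromosome 19 from 44394455 to 44407879. It was at 88.0, 179 and 259 CPM in WT and 142, 170 and 79.5 CPM in LSD1-mKO. The highest WT library was 2.95 times the lowest, and the LSD1-mKO libraries differed by 2.13 times, with both groups overlapping. The means were 175 ± 85.7 CPM in WT and 130 ± 46.1 CPM in LSD1-mKO (SD, n = 3 each), and the log2 fold change of -0.43 ± 0.38 (SE) had an edgeR adjusted p of 0.864. It was -0.75 without WT replicate 1 and -0.035 without WT replicate 3. The estimated count of Scd1 was not a whole number in 6 of 6 libraries, as was that of its paralogs Scd2 and Scd3, so reads shared with near-identical copies may have been split among them, and the Scd1 level is uncertain to that extent. Scd2 was at 36.4 ± 4.87 CPM in WT and 36.8 ± 7.52 CPM in LSD1-mKO (SD, n = 3 each), and its highest library was 1.47 times its lowest.

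**Figure D2:**
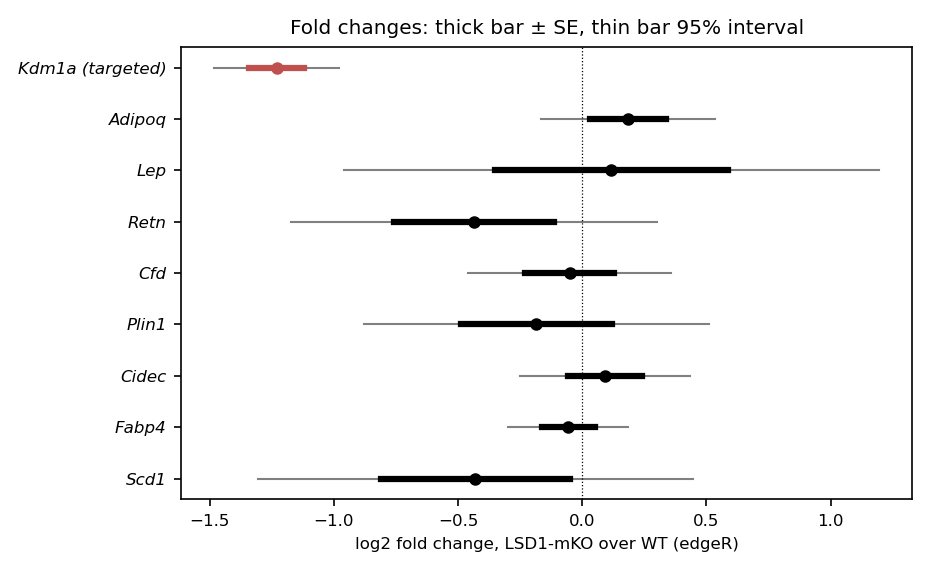
Log2 fold change (LSD1-mKO over WT, edgeR) of each adipocyte gene and of the targeted gene Kdm1a, with thick bars for ± SE and thin bars for the 95% interval. The interval of every adipocyte gene includes 0, while that of Kdm1a, at -1.23, does not.

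The variation between mice of 1 genotype differed widely among the 8 genes. The within-group SD of log2 CPM of Scd1 was above that of 96.9% of all genes tested, that of Lep above 96.6% and that of Plin1 above 92.4%. For Retn the percentile was 88.4, for Cfd 74.3, for Cidec 60.7, for Adipoq 60.3 and for Fabp4 29.7. Low counts raise this measure, as in Lep, where counting alone gives a coefficient of variation of 27.4% in WT and the observed value was 52.8%. In Scd1 counting alone gives 2.31% and the observed coefficient of variation was 48.9% in WT and 35.4% in LSD1-mKO. The edgeR biological coefficient of variation, which takes counting error out, was 0.329 for Scd1 against 0.131 for the trend at its level, and the ratio was above that of 99.1% of genes. For Plin1 it was 0.254 against a trend of 0.171, and for Fabp4 0.112 against 0.134.

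**Figure D3:**
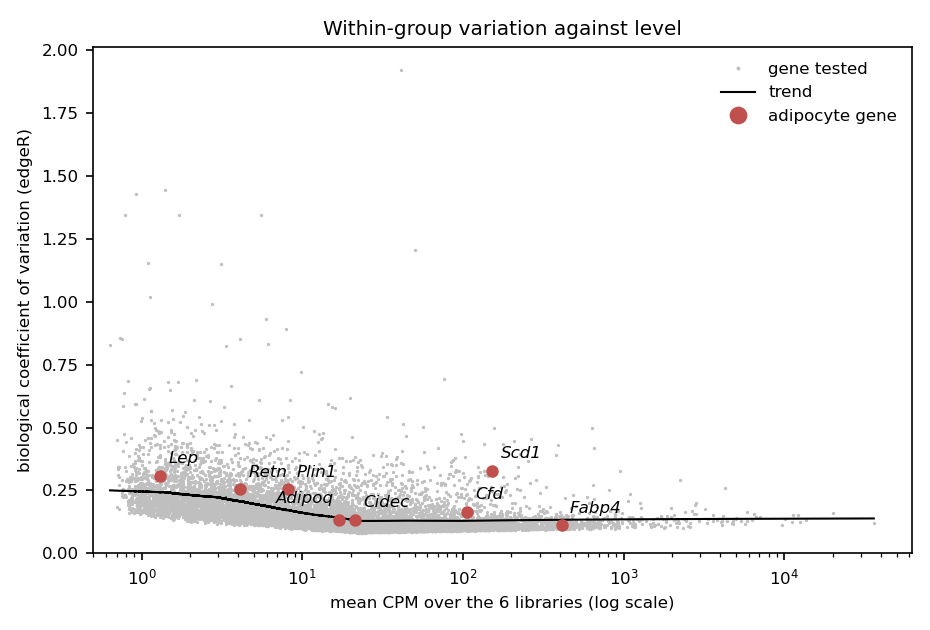
Biological coefficient of variation against mean CPM (log scale) for all 12828 genes tested (grey), with edgeR's trend as a line and the adipocyte genes in red. Scd1, at 0.329, stands well above the trend of 0.131, and Fabp4, at 0.112, stands below it.

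The libraries did not rank alike for all of the genes. Counted after the CPM were seen, WT replicate 1 was the lowest of the 6 libraries in 4 of the 8 genes (Adipoq, Plin1, Cfd and Lep), against 23.4% of all genes tested. WT replicate 3 was the highest in 4 (Plin1, Cfd, Retn and Scd1), against 16.3% of all genes. With library size alone as the scaling, WT replicate 1 was the lowest in 6. The mean deviation of the 8 genes from their own mean log2 CPM was -0.44, 0.09 and 0.41 in the WT libraries, by number, and 0.05, 0.08 and -0.19 in those of LSD1-mKO. The range from -0.44 to 0.41 lay within WT and enclosed all LSD1-mKO values. The other adipocyte markers did not share this range. Of the 19 tested, 4 were lowest in WT replicate 1 and 5 highest in WT replicate 3. Their mean deviation was -0.03, -0.09 and 0.12 in the WT libraries and -0.01, 0.04 and -0.03 in those of LSD1-mKO. Fabp4 deviated by -0.01 in WT replicate 1 and 0.03 in WT replicate 3 and Cidec by -0.15 and 0.11, against -0.78 and 0.60 for Plin1. Scd1 was low in LSD1-mKO replicate 3 by 0.82, where Cidec deviated by 0.04 and Adipoq by -0.07.

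**Figure D4:**
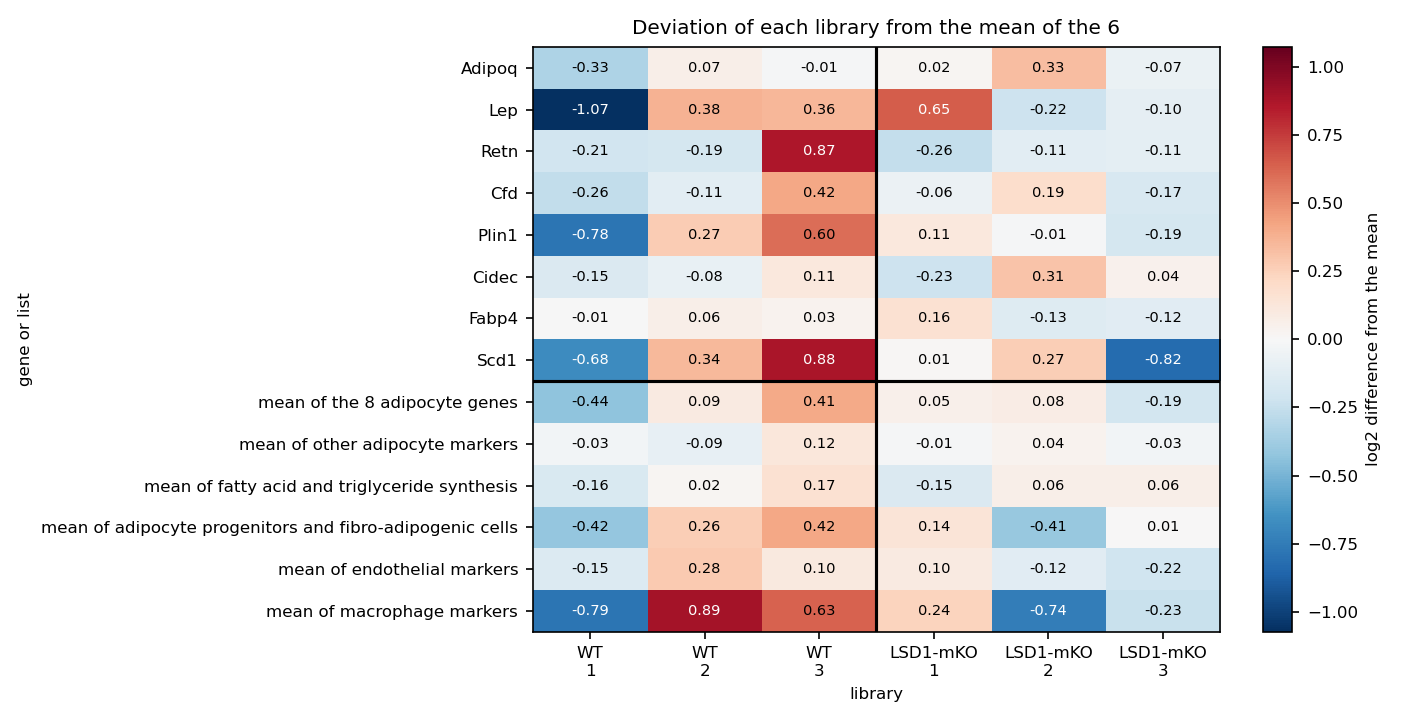
Deviation of log2 CPM in each library from the mean of the 6, for each adipocyte gene (above the line) and as the mean of the 8 genes and of other marker lists (below it), from blue (lower) to red (higher). WT replicate 1 is at -0.44 and WT replicate 3 at 0.41 for the mean of the 8 genes, and macrophage markers run from -0.79 to 0.89.

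When each gene was set against the mean profile of the other 7 over the 6 libraries, by the root mean square of the differences in deviation, Cfd ranked 208 of 12821, Plin1 1566 and Adipoq 1721. Fabp4 ranked 3317, Cidec 3561, Retn 6839, Scd1 11149 and Lep 11486, so that by this measure Lep and Scd1 were farther from the other adipocyte genes than most genes tested. The measure grows with the size of the deviations, so a gene of wide swings can rank far although its deviations run the same way. Scd1 had the sign of the mean profile of the 8, which includes Scd1, in all 6 libraries. The 10 other genes nearest to the mean profile of the 8 were Sowahc, Zfp85, Mill2, Zfp781, Ift80, Sgce, Cyp4f16, Runx1, Gucy1b3 and Taok3, at 0.027 to 0.087. None of the 10 is on the marker lists. The listed genes ranked from near to far, the 19 other adipocyte markers tested from 101 (Cebpa, a transcription factor of fat cells) to 12083 (Lpl, the lipoprotein lipase) with a median of 8245, and the 15 genes of fatty acid and triglyceride synthesis from 22 (Acly, which makes acetyl-CoA) to 12523 with a median of 8330. Fasn, the fatty acid synthase, ranked 9956. These likenesses rest on 6 libraries that all genes share and are a description.

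Other fat cell genes gave the same picture of no call. Of 20 other adipocyte markers 19 were tested and 0 were called, with 9 fitted above 0, 10 below, and a fitted change at the median of -0.0029 (log2) against -0.02 for all genes. Several of these are also known in muscle fibers, as Lpl, Car3, Cd36 and Acsl1, with means over the 6 libraries of 1495, 3755, 770.2 and 507 TPM. Among those tied to fat cells, Pparg, the master regulator of adipogenesis, was at 10.6 ± 0.728 CPM in WT and 10.8 ± 1.16 CPM in LSD1-mKO (SD, n = 3 each), and Cebpa at 18.5 ± 2.99 and 18.5 ± 1.31 CPM. These were among the steadier markers. The percentile of the within-group SD was 30.8 for Pparg and 53.7 for Cebpa, against a median of 71.4 for the 19. It was 96.7 for Mrap (1.67 ± 1.27 and 1.68 ± 0.116 CPM) and 93.7 for Pck1 (31.4 ± 17.1 and 25.1 ± 1.22 CPM). Of the 19 tested, Lgals12 was the only one without overlap, against 12.7% of all genes. It was at 2.41 ± 0.284 and 1.57 ± 0.312 CPM and did not pass the test. Adrb3, the adrenergic receptor of fat cells and the untested gene of the list, had 0 counts in WT replicate 1. Pparg, Cebpa, Mrap, Pck1, Lgals12 and Adrb3 were named after their values were seen.

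Of 15 genes of fatty acid and triglyceride synthesis, the pathway in which Scd1 acts, 15 were tested and 0 were called, at a median of -0.10 (log2). Examples are Lpin1 (460 ± 137 CPM in WT, 406 ± 109 in LSD1-mKO), Dgat2 (362 ± 63.9 and 338 ± 86.2), Gpam (296 ± 41.1 and 252 ± 26.6) and Me1 (100.4 ± 4.99 and 123 ± 15.9), with SD and n = 3 each. Of the 15, 6 were fitted above 0 and 9 below. In 3 of the 15 the groups did not overlap, against 12.7% of all genes. In 2 the unadjusted edgeR p was under 0.05, against 6.4% of all genes tested, both fitted higher in LSD1-mKO and neither called. These were Mlxipl, the transcription factor ChREBP, with a log2 fold change of 0.42 ± 0.11 (SE) and an edgeR adjusted p of 0.534, and Me1, malic enzyme, with 0.30 ± 0.11 (SE) and 0.718. The third without overlap was Dgat1, at 13.7 ± 0.989 CPM in WT and 11.3 ± 1.31 CPM in LSD1-mKO. Fasn was the listed gene most like Scd1 and was singled out after its values were seen, as was its rank of 5 among all genes by likeness to Scd1 alone. Fasn was at 30.6, 74.5 and 114 CPM in WT and 48.5, 56.8 and 37.3 CPM in LSD1-mKO. As with Scd1, WT replicate 1 was the lowest and WT replicate 3 the highest of the WT libraries, 3.74 times apart for Fasn and 2.95 times for Scd1. The log2 fold change of Fasn was -0.63 ± 0.39 (SE), with an edgeR adjusted p of 0.781.

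Paralogs of the adipocyte genes numbered 10, of which 7 were tested and 0 were called. Beside Fabp3 and Scd2, examples are Plin5 (68.3 ± 19.8 CPM in WT and 91.5 ± 25.3 in LSD1-mKO) and Plin2 (59.4 ± 0.236 and 60.9 ± 2.70). Plin2, a droplet coat protein found in most cells, had a within-group SD above that of only 1.75% of genes. The brown fat gene Ucp1 had 0 counts in all 6 libraries, which allows up to 0.217 to 0.336 CPM for a floor of 3 counts. Of 7 brown adipocyte markers 5 were tested and 0 were called, with 1 fitted above 0, 4 below and a median of -0.39 (log2). The 1 above 0 was Cidea, a paralog of Cidec, at 9.35 ± 3.28 CPM in WT and 13.1 ± 2.59 CPM in LSD1-mKO (SD, n = 3 each).

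Markers of other cells in the muscle moved between the libraries too. All 8 macrophage markers were tested, 0 were called and 8 were fitted below 0, at a median of -0.60 (log2). Of all 12828 genes tested, 7027 were fitted below 0, at a median of -0.02. The 8 markers share 1 cell type and the same 6 libraries, so they are not separate results. Their summed level ran from 140 to 408 CPM in WT and from 136 to 258 CPM in LSD1-mKO. None of the 8, among them Lyz2, Csf1r, C1qa and Mrc1, was at 0. Of 8 markers of adipocyte progenitors and fibro-adipogenic cells 7 were tested and 0 were called, with sums of 270 to 481 CPM in WT and 283 to 390 CPM in LSD1-mKO, and the mean deviation of these genes was -0.42, 0.26 and 0.42 in the WT libraries and 0.14, -0.41 and 0.01 in the LSD1-mKO libraries. Endothelial markers, 10 of 10 tested and 0 called, summed to 667 to 904 CPM in WT and 667 to 783 CPM in LSD1-mKO. Schwann cell markers, 7 of 8 tested and 0 called, summed to 158 to 172 CPM and 151 to 179 CPM. Of the markers tested, 7 endothelial, 6 progenitor and 6 Schwann cell markers were fitted below 0. At an unadjusted edgeR p under 0.05 were 2 endothelial, 1 progenitor and 1 macrophage marker, all fitted lower, against 6.4% of all genes. The groups did not overlap in 1 endothelial and 1 progenitor marker, against 12.7% of all genes. The mean deviation of the macrophage markers was -0.79 in WT replicate 1, 0.89 in WT replicate 2 and 0.63 in WT replicate 3, and the part of other cells in the values of the adipocyte genes was not tested.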

How the data were processed

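Per the labels, the authors aligned the reads with STAR to mm10 and compared the genotypes with DESeq2. The counting tool and annotation are not given in the sources used here. The authors deposited estimated counts per gene, not normalized, under 10% of which are not whole. A second table, not used here, holds the authors' own DESeq2 comparison (fold changes and p-values). Estimated counts were rounded and tested in edgeR 4.0.16 (R 4.3.3; TMM, filterByExpr, quasi-likelihood test) with Benjamini-Hochberg adjustment over 12828 genes, calling adjusted p under 0.05. Alternatives were limma 3.58.1 (voom), DESeq2 1.42.0, other scalings and filters, the replicate number as a block and each library left out in turn. TPM used the longest coding transcript of GENCODE vM21, in which 99.7% of counts had a length. The log2 CPM for profiles used a prior count of 2. Counts per library limit precision. Poisson intervals and the floor cover counting error only, while the intervals of fold changes also take in the spread between mice. Named genes were the members, up to 4 genes of each list by highest CPM, the 10 genes nearest the mean profile and Kdm1a. Pparg, Cebpa, Mrap, Pck1, Lgals12, Adrb3, Fasn, Acly, Mlxipl, Dgat1 and Ucp1 were named after their values were seen. Members and lists were chosen with earlier results of these data known. Scripts were tested on simulated data.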

Additional observations from a re-analysis of the deposited data

How the results depend on the processing

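No adipocyte gene and no gene of the other lists was called under any of the 14 alternatives, and the lowest adjusted p of an adipocyte gene over them was 0.298 (Plin1). Of 111 fold changes of the 8 genes set against their main value, 103 kept their direction and 8 changed sign, in each case when 1 library was left out. Over the 6 fits that leave out a library, the log2 fold change ran from -0.16 to 0.0036 for Fabp4, from -0.47 to 0.12 for Plin1, from -0.18 to 0.18 for Cfd (0.025 without LSD1-mKO replicate 3), from -0.046 to 0.22 for Cidec, from -0.63 to 0.042 for Retn and from -0.26 to 0.34 for Lep (-0.21 without WT replicate 1), and what causes these turns was not tested. Lep gave no value at a minimum of 10 counts in every library. Adipoq (0.062 to 0.27) and Scd1 (-0.75 to -0.035) kept their sign. Over all genes, DESeq2 called 33 higher and 9 lower, voom 2 and 1, the fit with no filter 8 and 3, and the main test 1 and 1. Leaving out a library gave 1 to 2 genes higher (2 without WT replicate 1) and 0 to 1 lower. The lower gene is Kdm1a, lost without WT replicate 2 and without each LSD1-mKO replicate. With the replicate number as a block, 1 gene was higher and 0 were lower, and the fold change of Kdm1a was -1.23 with an edgeR adjusted p of 0.299. Deviations of same-numbered libraries correlated at -0.35, -0.11 and -0.15, so mice of 1 number were not treated as pairs. Under 3 other scalings, the ratio of the highest to the lowest library moved by a smaller share than the gene's own coefficient of variation over the 6 libraries (24 of 24). This limit widens with the variation of the gene, so it is easily met by variable genes. With library size alone the ratio was 2.95 for Plin1, against 2.67, and 4.45 for Lep, against 4.14. These libraries hold 8940206 to 13798059 counts, and with 3 mice per group Lep, at 4 to 27 counts, could hide a change within its 95% interval of -0.96 to 1.19. The same holds for Scd1 (-1.30 to 0.44), although it had 731 to 2922 counts, for Retn (-1.17 to 0.30) and for Plin1 (-0.88 to 0.51). The intervals of Cfd (-0.46 to 0.36), Adipoq (-0.17 to 0.53) and Cidec (-0.25 to 0.43) were narrower.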
